A study of Mus musculus with 74 samples.

Results

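AW146154 is a mouse KRAB zinc finger protein (KRAB-ZFP) gene on mouse chromosome 7, at chr7:48734250-48755260 of the mm9 genome build, and its genomic binding was measured by ChIP-seq in F9 EC cells, a mouse embryonal carcinoma line that resembles early embryonic cells. The deposited table lists 159 peaks under the name AW146154, of 53011 peaks for the 67 samples that could be matched to a label. The peaks were chosen by that name alone. The comparison set is the 29 other F9 samples whose peaks were called against the same input and HA control ChIP, which together hold 12524 peaks. In the AW146154 sample, cells overexpressed the protein with an N-terminal 3XHA epitope tag, and an antibody to HA pulled down the tagged protein with its DNA. All 30 samples carried an overexpressed KRAB-ZFP with an HA tag at one of its ends. The constructs were stably integrated, so binding was measured for an added, tagged protein and not for the endogenous one. Resistant clones were pooled before the ChIP. There is 1 library for each protein, so the values carry no replicate error, and tests between proteins compare these libraries only.

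KRAB-ZFPs form a large family of DNA-binding repressors. An array of zinc fingers reads a specific DNA sequence, and the KRAB domain recruits the corepressor KAP1 (encoded by Trim28), which brings histone methylation and silencing to the bound locus. Many members bind transposable elements, and their binding sites are therefore often found in related, repeated copies through the genome.

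The sequences that carry the result are shown first. A 30-base motif fitted on the AW146154 windows, the 200 bp regions around the peak summits, had the consensus GGnGAnTGcatncCaTAtGanAtnatngCc, in which capitals mark the 12 positions with more than 1 bit of information, lower case marks the commonest base at weaker positions and n marks positions where no base reached the majority. The study's own list of reporter oligos holds a 36-base site for AW146154, named there for MurERV4, an endogenous retrovirus. It lies without mismatch at 1 place in the genome, chr9:119322253-119322288 on the plus strand, inside the window of the AW146154 peak with the highest fold. That window, in an intron of Acvr2b, is printed with the oligo in capitals.
Acvr2b intron, chr9:119322200-119322399, plus strand: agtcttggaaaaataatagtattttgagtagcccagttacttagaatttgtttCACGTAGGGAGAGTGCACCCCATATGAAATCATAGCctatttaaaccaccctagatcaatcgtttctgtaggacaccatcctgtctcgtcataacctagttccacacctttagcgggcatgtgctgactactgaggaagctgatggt

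The next 12 sequences are the motif matches of the peaks with the highest fold, with 7 bases on either side, 44 bases in all, each on the strand of the motif. The family window that ranks 5 by fold, at 150.35, is not printed, so the family lines run from rank 1 to rank 8 without it. Capitals mark the bases that equal the consensus at the 12 positions of more than 1 bit. The first 6 come from windows that are related to one another in sequence, called the family here. The last 6 come from windows with no related sequence elsewhere in the genome. Among these, the Vit intron window, with a fold of 110.79, ranks above the Gm1587 line but had no motif match and is not printed. They are shown to let the common bases be read across unrelated surroundings.
Family, Acvr2b intron, chr9:119322253-119322296, plus: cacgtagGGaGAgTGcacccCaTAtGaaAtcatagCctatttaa
Family, near Kcnh2, chr5:23820205-23820248, minus: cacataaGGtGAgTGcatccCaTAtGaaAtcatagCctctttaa
Family, near Sumo2, chr11:115410639-115410682, plus: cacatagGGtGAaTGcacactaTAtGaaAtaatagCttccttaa
Family, BC025920 intron, chr10:81074106-81074149, minus: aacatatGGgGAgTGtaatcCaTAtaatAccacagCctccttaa
Family, nearest start Vmn2r79, chr7:94237804-94237847, plus: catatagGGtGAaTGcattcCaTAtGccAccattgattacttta
Family, nearest start a U6 gene, chr8:88871741-88871784, plus: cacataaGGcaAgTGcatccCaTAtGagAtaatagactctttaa
No relative, nearest start Ndufs4, chr13:114968867-114968910, plus: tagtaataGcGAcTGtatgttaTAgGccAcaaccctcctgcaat
No relative, Acsm3 intron, chr7:126921402-126921445, minus: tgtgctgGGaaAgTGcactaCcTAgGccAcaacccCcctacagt
No relative, Ncoa7 intron, chr10:30515626-30515669, plus: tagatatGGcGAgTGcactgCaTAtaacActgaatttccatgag
No relative, Slc25a13 intron, chr6:6092974-6093017, minus: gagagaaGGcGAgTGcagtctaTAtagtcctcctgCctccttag
No relative, nearest start Gm1587, chr14:78152009-78152052, plus: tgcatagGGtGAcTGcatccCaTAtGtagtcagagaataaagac
No relative, Pebp4 intron, chr14:70307222-70307265, plus: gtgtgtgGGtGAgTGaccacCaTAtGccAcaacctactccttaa

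The family sites held 10 to 12 of the 12 consensus bases and the sites without relatives held 9 to 11. The second G of the motif, its A at position 5, the TG that follows and the central TA stand in all 12 lines. Only windows with a motif match were printed.

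The AW146154 peaks were strongly enriched. The deposited fold, the enrichment over control that the peak caller gave, ranged from 20.57 to 174.09 with a median of 55.39. Each peak held 20 to 900 tags, with a median of 102, and 25672 tags fell in all 159 peaks. The width as called had a median of 453 bp. The deposited peak score reached 3000 or more in 31 of 159 peaks, where the scores end close to a common ceiling, so the fold was used to order the peaks. The deposited false discovery rate was at most 1.75%.

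The median fold of AW146154 was the highest of the 30 samples. The other 29 had median folds from 11.87 to 52.725, with a median of 22.7, and Zfp808 was the nearest. The two-sided exact permutation test over samples gave p = 0.0667, which is the smallest that 1 sample against 29 can give, and 0.267 after Benjamini-Hochberg adjustment over the 10 measures compared. No measure can pass 0.05 in this design. The labels gave looser calling settings for part of the other samples, and with all 30 held to a score over 100 and a fold over 20 AW146154 still ranked first of the 29 samples with peaks left. The number of peaks was ordinary, with 159 against a median of 188 and a range of 67 to 1812. The median width of 453 bp and the median tag count of 102 were each exceeded by 1 sample, Zfp808 in both cases (1263 bp and 305.5 tags), with an exact permutation p of 0.133 for either.

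**Figure D1:**
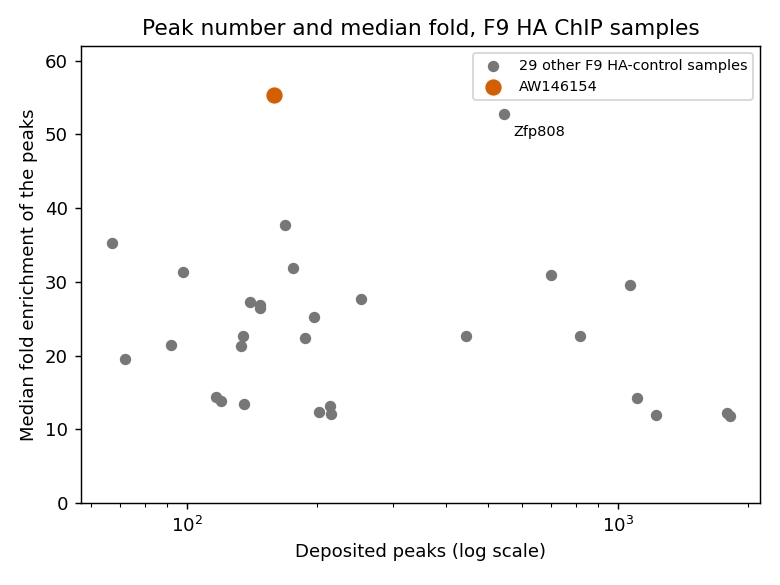
Deposited peak number (log axis) against the median deposited fold for each of the 30 F9 HA samples, 1 point per sample and no error bars because each protein has 1 sample. AW146154 lies at 159 peaks and a median fold of 55.39, with Zfp808 at 52.725 next and the other samples at or below 37.69.

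The base composition of the windows was also low in G and C. The median GC content was 38.5% against 35% to 55% in the other samples, where Zfp808 was the lowest, with an exact permutation p of 0.133. These sample-level measures are not independent of one another.

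The AW146154 windows were mostly single-copy as exact sequence and mostly repeated as diverged sequence. Copy number was first counted as exact 24-base words of each window in the genome, where a median of at least 10 was called multi-copy. By this measure 1 of 159 windows was multi-copy (0.629%, 95% Wilson interval 0.111% to 3.48%), against 8.94% of the windows of the other samples, and 151 windows had a median copy number of 1. The other samples had multi-copy shares from 0% to 77.6% with a median of 4.93%, and 2 of them were lower than AW146154 (exact permutation p = 0.2). Mapping placed a read with several equal best positions at 1 of them, so windows with a copy number of 1 are those where the placement of reads is least in doubt.

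Alignment with gaps and mismatches gave another picture. A blastn search (E-value of at most 1e-05, alignments of at least 100 bp) joined 95 of the 159 windows into 1 connected family. Each of these 95 had 5 to 226 related places in the genome, with a median of 116. Of the 64 windows outside the family, 48 had no related place and 16 had some. Repeat annotation was not used here, so the family is named by its sequence relation only.

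Family windows had the stronger peaks. Their median fold was 68.7 (interquartile range 42.7 to 109), against 36.8 (26.5 to 66.6) for the 64 others, and they took 15 of the 20 highest places. Their called width had a median of 549 bp against 354.5 bp, and their GC content 36.5% against 44%. The peaks come from 1 sample and are not replicates, so these differences are a description and were not tested.

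The unbroken stretch covered by alignments to the Acvr2b intron window lay mainly before the motif. Of the 94 other family windows, 60 aligned to the Acvr2b intron window at the motif centre, with a median identity of 70.7% over the site. Counted position by position, at least 47 of the 94 aligned from 140 bp before to 87 bp after the centre on the motif strand. The count stayed at 24 or more from 886 bp before it to 153 bp after it. It stayed at 10 or more over 1809 bp, of which 1651 bp lay before the centre. Different windows can make up the count at different positions, so no window is shown to align over a whole span. The alignment depth dropped within about 150 bp after the site. Further on it came back in separate blocks, with 25 windows at 620 bp, 17 at 1700 bp and 11 at 3140 bp after the centre.

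**Figure D2:**
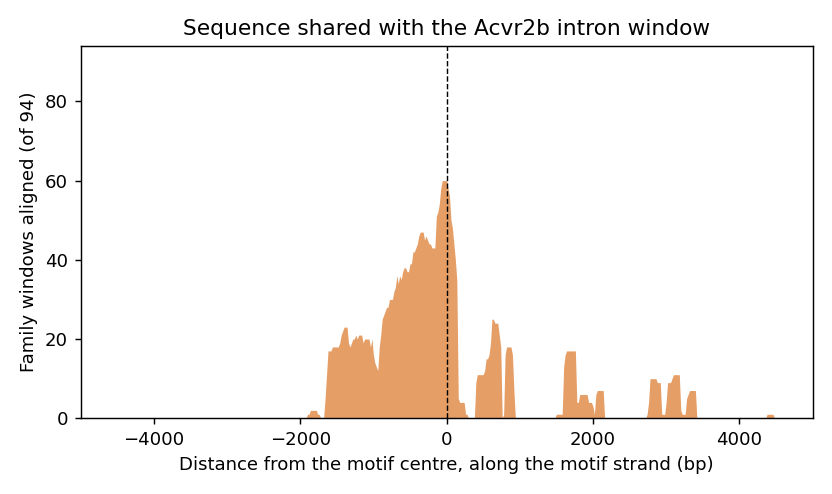
Number of the 94 other family windows that align to the Acvr2b intron window at each distance from the motif centre, counted along the motif strand. The depth peaks at 60 windows near the motif and stays at 10 or more from 1651 bp before it to 157 bp after it. Different windows can make up the depth at different positions. Separate blocks follow after the motif, with 25 windows at 620 bp and 11 at 3140 bp.

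The motif was present in most AW146154 windows. It was fitted on the windows of one set of chromosomes and scored on the other set, both ways, with a score threshold that 1% of evenly spaced genome windows met. A match stood in 137 of 159 windows (86.2%, Wilson interval 79.9% to 90.7%). The held-out motifs matched 4 of 318 windows placed 1 kb to either side of the AW146154 summits (1.26%, 0.490% to 3.19%). The other 29 samples were scored with the motif fitted on 158 AW146154 windows together, at its own 1% threshold, and 0.798% of their windows matched. Among the other samples the share ran from 0% to 5.10%, the latter being 5 of 98 windows of Gm13150. All 95 family windows matched (lower bound 96.1%), as did 42 of the 64 others (65.6%, 53.4% to 76.1%) and 31 of the 48 without relatives (64.6%, 50.4% to 76.6%). Family copies lie on both sets of chromosomes, so a share taken across chromosomes is not independent for them.

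A motif fitted without the family also matched in it. Fitted only on windows outside the family, and again split by chromosome, the motif matched 90 of 95 family windows (94.7%, 88.3% to 97.7%) and 47 of the 64 others (73.4%, 61.5% to 82.7%). This test was chosen after the family had been seen. The reverse was not a fair test. A motif fitted on family windows alone matched 3 of 64 other windows (4.69%), with 20 of its 30 positions above 1 bit. Its frame lay mostly in the family sequence before the site and ended before the central TA, so it could hardly match windows that lack that sequence.

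Position by position, the family and the others differed in how often they held the consensus base. The consensus was fitted on 158 windows, of which 95 were family windows, so it leans towards the family. In the 95 family and 42 other windows with a match, the consensus G at position 2 stood in 96.8% and 97.6%. The T and A at positions 16 and 17 stood in 100% and 95.2%, and in 100% and 97.6%. At position 26 the consensus T stood in 76.8% of family windows and 16.7% of the others, and at position 20 the consensus A stood in 78.9% and 31.0%. The 6 bases at positions 14 to 19 read CATATG in 61 of 137 matches, with a median fold of 69.45. CATATA and TATATG followed with 12 matches each and median folds of 98.8 and 78.5. CATAGG stood in 11 matches with a median fold of 42.73, and CATACA in 9, all in the family, with 45.9.

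The summit lay close to the motif. The motif centre lay within 50 bp of the summit in 136 of 137 matches. Finer distances are not read. The held-out motifs were framed -7 and 1 bases from the motif of all windows, and this offset was added with the wrong sign. The centres are therefore displaced, and no shift along the motif strand is claimed. The family copies counted below were placed from these centres, and an offset was added to the genome sites in the same way. Places near the edge of a window could therefore be counted differently. In the windows of the other samples, where no offset was needed, 25 of 100 matches lay within 20 bp of the summit. No count at 20 bp is given for AW146154.

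**Figure D3:**
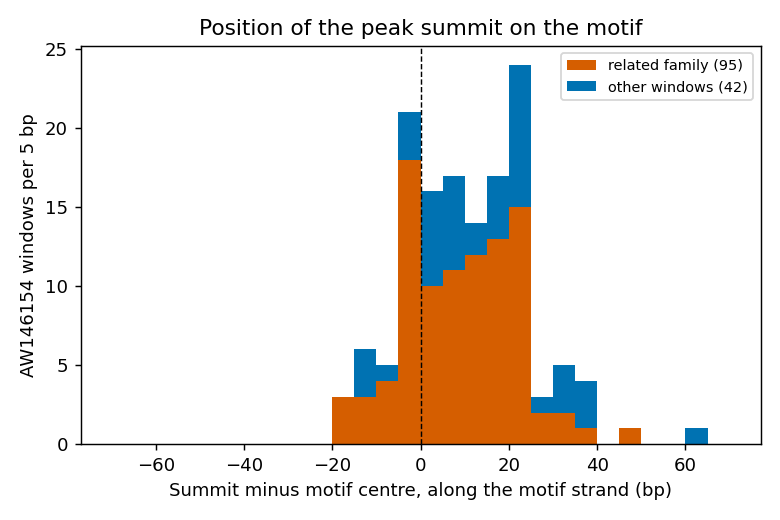
Distance from the motif centre to the peak summit along the motif strand for the 137 AW146154 windows with a match, in bins of 5 bp, stacked by family (95) and other windows (42). The plotted centres carry a frame offset of the held-out motifs with the wrong sign, so neither the side nor the size of a shift is read from the plot.

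Motif score and fold went together loosely. With scores from the motif of unrelated windows, the median fold was 38.8 in the 40 windows of lowest score, 41.9 in the next 40, 63.3 in the 39 after those and 97.04 in the 40 of highest score, of which 36 were family windows. Spearman's rho was 0.47 over the 159 windows, 0.47 within the 95 family windows and 0.28 within the 64 others. The windows share 1 library, and rho is given as a description. Windows of low score and high fold exist. The Ndufs4 site, which ranks 3 by fold at 163.02, has no relative in the genome and matches 9 of the 12 consensus bases.

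**Figure D4:**
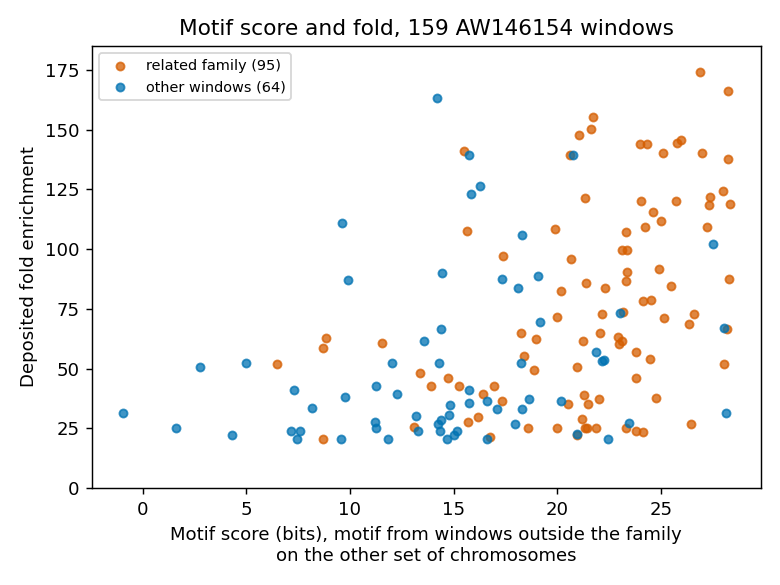
Motif score in bits (motif fitted on windows outside the family, on the other set of chromosomes) against deposited fold, 1 point per AW146154 window, 95 family and 64 other windows. Most folds over 100 lie at scores above 20 bits and belong to family windows, and the lowest scores come from windows outside the family.

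Family copies in a peak had higher motif scores than copies outside one. The search with the family windows found 460 related places in the genome, of which 96 had their centre in an AW146154 window (20.9%). Each family window also found itself, and these hits were kept. The 20.9% was therefore largely set by the search, and the shares by score below were raised by it. The median motif score, again from unrelated windows, was 22.2 bits in those 96 and 11.4 bits in the other 364. The share in a peak was 1 of 126 below 8 bits, 4 of 102 from 8 to 13 bits, 12 of 81 from 13 to 17 bits, 16 of 68 from 17 to 21 bits, 18 of 31 from 21 to 23 bits and 45 of 52 above that (86.5%, 74.7% to 93.3%). None of the 460 places had its centre in a window of the other 29 samples, though the family window near Tsks overlapped a Zfp709 window in part. The 7 places above 23 bits with no peak all had a median exact copy number of 1. The places were found with bound windows as queries, so copies unlike any bound window are underrepresented.

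Over the whole genome, family copies included, the share in a peak also rose with the score of the same motif. Sites of 27 bits or more lay in an AW146154 window in 13 of 14 cases (92.9%, 68.5% to 98.7%). From 25 to 27 bits the count was 12 of 17, from 23 to 25 bits 24 of 57, from 21 to 23 bits 22 of 203, and from 19 to 21 bits 14 of 890. From 13 to 15 bits it was 18 of 47826, and weaker sites were not counted. None of the 88 sites of 23 bits or more lay in a window of another sample, while 49 lay in an AW146154 window.

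Genome matches of the reporter oligo were counted in the same way. With up to 6 mismatches it matched 16 places in the genome, and all 16 lay in AW146154 windows (lower bound 80.6%) and none in a window of another sample. These 16 windows had folds from 67.12 to 174.09 with a median of 120, 15 belonged to the family, and 13 were intergenic. With up to 8 mismatches it matched 44 places, of which 34 lay in AW146154 windows (77.3%, 63.0% to 87.2%). The oligo was picked by the study from these or related data and is no independent evidence of where the protein binds.

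**Figure D5:**
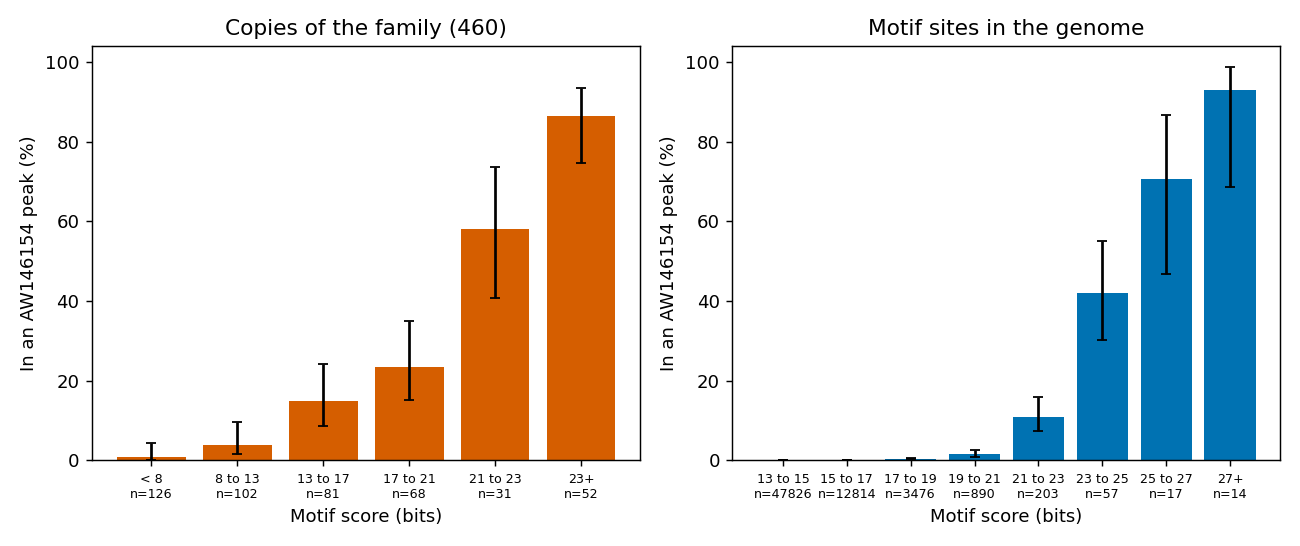
Share of family copies (left, 460 in all) and of motif sites in the whole genome (right) that lie in an AW146154 window, by motif score in bits, with 95% Wilson intervals as error bars and the number of places under each bar. The share rises to 86.5% of 52 family copies above 23 bits and to 13 of 14 genome sites of 27 bits or more. The family windows used as queries are among the 460 copies, and the genome sites include those in family copies. Places are counted by centres that can carry the offset described for the summits.

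The single multi-copy window was a tandem array. It lies in an intron of Pigf, a gene for a step of GPI anchor synthesis, and its peak was the widest and had the most tags of all 159, with 2075 bp (chr17:87411685-87413759), 900 tags and a fold of 87.05. A 24-base word recurred 56 times there, in steps of 33 bp in 54 of 55 cases, over 1872 bp. In this stretch the motif had 33 separate matches, all on the plus strand. The match is weak, and 2 adjoining units of the array are printed with capitals as above.
Pigf intron, chr17:87412542-87412607, plus: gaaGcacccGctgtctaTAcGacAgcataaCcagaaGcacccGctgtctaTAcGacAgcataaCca
One more window, in an intron of Igf1r, held 2 separate matches.

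The shares of AW146154 peaks in introns and between genes were close to those of evenly spaced genome windows. In the gencode annotation of the mm9 build, 94 of 159 summits were intergenic (59.1%, 51.4% to 66.5%), 61 intronic (38.4%, 31.2% to 46.1%), and 4 in exons. Evenly spaced genome windows were 59.0% intergenic and 37.5% intronic, and the windows of the other samples 53.7% and 41.7%. Transcript starts were within 1 kb of 7 of 159 AW146154 summits (4.40%, 2.15% to 8.81%), against 4.23% of genome windows and 7.88% of the other samples' windows. The samples taken one by one had a median of 6.67% near starts and 41.5% in introns, with exact permutation p of 0.6 and 0.8. The family was 76.8% intergenic (67.4% to 84.2%) and 22.1% intronic (14.9% to 31.4%), and the other AW146154 windows 32.8% (22.6% to 45.0%) and 62.5% (50.3% to 73.3%). In introns the motif ran on the strand of the host gene in 17 of 21 family windows (81.0%, 59.999% to 92.3%) and in 14 of 26 others (53.8%, 35.5% to 71.2%).

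The 10 peaks with the highest fold were spread over 9 chromosomes and 9 of them were family windows. The first was the Acvr2b intron at 174.09, in the gene of an activin receptor. It was followed by a window 7870 bp from a start of Kcnh2, a potassium channel gene, at 166.18, the Ndufs4 site 209403 bp from the nearest start at 163.02, and a window 13068 bp from Sumo2, a gene for a ubiquitin-like modifier, at 155.1. The next 6 had folds from 143.98 to 150.35. Among them were windows whose nearest starts belong to the vomeronasal receptor genes Vmn2r79 (145.61) and Vmn1r1 (143.98), both over 50 kb away, and one 4417 bp from Pcdhb2, a protocadherin gene (144.02). All 10 had a motif match.

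A few summits lay in exons or next to a gene start. The coding-exon summit was in Tet2, an enzyme that oxidises methylated cytosine (chr3:133132144-133132343, fold 69.45, motif matched, no relative in the genome). The UTR summits were in D730040F13Rik (56.98, family) and Zcchc24 (23.74). A summit in another exon model of Dmd, the dystrophin gene, was 1 of 6 that tied at the lowest fold of 20.57, of which 1 had a motif match. The Dmd window had none and had 19146 related places in the genome. The motif fitted on windows outside the family did match the Dmd window. Of the other unmatched windows at this fold, it matched those of Slc39a9 and Eml6 and not those of Rpl19 and Magi1. Near starts lay Igf1r, the receptor of insulin-like growth factor, at 139.28 and 823 bp, Acsm3, an acyl-CoA synthetase, at 139.28 and 861 bp, Gm10813 at 139.28 and 188 bp, and Gm11507 at 120.28 and 852 bp. Ecd followed at 73.38 and 498 bp, A430107O13Rik at 66.47 and 127 bp, and Rab12, a small GTPase, at 41.15 and 97 bp. The motif was matched in 5 of these 7 and not at A430107O13Rik or Rab12, while the motif fitted on windows outside the family matched both of those as well.

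Chromosome 16 held 12 peaks, 7.55% of the AW146154 peaks against 3.35% of the other samples' peaks. Chromosome 6 also held 12, and chromosome 2 held 15. On chromosome 16, 6 of the 12 lay within 328 kb in the stefin gene region (stefins inhibit cysteine proteases), between Ccdc58 and Stfa3. All 6 were family windows with a motif match, with folds of 49.37, 107.24, 139.28, 99.73, 39.16 and 86.47 in order along the chromosome. The first of the group lies at chr16:36104389-36104588 and the last at chr16:36432324-36432523. The median exact copy number was 1 in 4 of them and 2 in the other 2.

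In all, 3 pairs of AW146154 peaks lay within 10 kb of each other. A pair in the stefin region was 2941 bp apart, with motifs on opposite strands. A pair 694 bp apart near Krt6b, a keratin gene (chr15:101497349-101497548 and chr15:101498043-101498242), had motifs on the same strand and folds of 72.8 and 61.72. The last pair, 360 bp apart near Hmgn2, a nucleosome-binding protein (chr4:133492447-133492646 and chr4:133492807-133493006), paired a family window of fold 64.89 with one of fold 31.65 that had no match.

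The 22 windows without a motif match had a median fold of 28.8, against 62.4 for the 137 with a match, and none of them was a family window. Their folds overlapped those of the matched windows. An intron of Vit at chr17:78950545-78950744 had a fold of 110.79 and the A430107O13Rik window 66.47, both above the matched median. Which windows lacked a match depended on the motif. With the motif fitted outside the family, 22 windows again had no match, but 5 of these were family windows, with folds from 20.7 to 62.83, and 11 of the 22 named first did match. The Vit window was among the 11 that neither motif matched. With this motif the median fold was 35.8 without a match and 61.7 with one.

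AW146154 shared almost no window with another protein. Of its 159 windows, 1 overlapped a window of the other 29 samples by at least 25% (0.629%, 0.111% to 3.48%), against 24.6% of the other samples' windows that overlapped a window of another of the 30 samples. The 24.6% is pooled over samples with unlike calling settings and peak numbers, so the 2 shares are not matched. The shared window was a family window 5977 bp from Tsks (chr7:52192516-52192715), with a fold of 111.9 for AW146154 and 14.2 for Zfp709, whose summit was 130 bp away. It made up 0.0818% of the 1223 Zfp709 windows. Samples made with other controls, tags or cells did not overlap any of the 159 windows, with an upper Wilson bound of 2.36%.

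No gene of the KRAB-ZFP list or of the silencing list lay within 10 kb of an AW146154 peak. The first holds the 68 KRAB-ZFP genes of the series, of which 64 were found in the annotation, and the second 17 genes for silencing proteins such as Trim28, Setdb1 and the DNA methyltransferases, all found. Of all 22380 protein-coding genes, 0.541% had a peak that near, so lists of this size would hold few or none, and nothing is read from the zeros. Of 397 genes named Zfp, Zkscan, Zscan or Zik1, 3 that are not on the list had a peak within 10 kb, Zfp84, Zik1 and Zfp407. This search was made after their values were seen. At the 0.541% share of all protein-coding genes, 397 genes would also hold a few, so nothing is read from the 3.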

How the data were processed

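The authors sequenced each ChIP, mapped reads to mm9 with Bowtie (3 bases trimmed from the 5′ end, best position kept) and called peaks with MACS 1.4.2 over F9 input and HA control ChIP, per the labels at p under 1e-10 and enrichment over 20 for AW146154. The deposited table gives, for 200 bp windows around summits, the tag count, peak score, fold enrichment and false discovery rate in percent. Library depth is unknown, and intervals cover counting error only. Of 53255 rows, 244 carried 1 name that matched no label and were not used, and 1 further labelled sample had no rows.

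Windows, exact 24-base words and the motif (expectation maximisation, at most 1 site per window, both strands) were read from the mm9 genome with numpy 2.4.6. Relatives came from blastn 2.17.0. Overlap, motif and word counts were tested on simulated data. Samples were compared by exact permutation with Benjamini-Hochberg adjustment (scipy 1.17.1). Peaks were named by rank of fold, exon or start position, overlap and close pairs. Since 1 window was multi-copy, the printed sites were split by sequence family instead, with none from chromosome 18. Members and lists were chosen with earlier results of these data known.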

Additional observations from a re-analysis of the deposited data

How the results depend on the processing

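Of 54 alternatives to 18 results, 42 kept the result. No paired analysis was possible because each protein has 1 sample. The difference from the other samples' mean on the log10 scale in peak number turned from -0.21 to 0.27 with all samples held to a score over 100 and a fold over 20, and that in the intronic share from -0.61 to 0.70 percentage points among samples with the strict labelled settings and 4.74 among those with an N-terminal tag, none of them past the threshold. The multi-copy share became 5.03% at 2 or more copies, 0% at 100 or more and 62.9% with at least 10 blastn relatives. The shared windows became 0 at 50% overlap, 2 at 1 bp and 0 at the common thresholds. The motif share became 95.05% for folds over 40 and 4.69% with the family motif scored on the other windows. The frame of the family motif ends before the central TA, so the 4.69% is not read as a share for the site. The oligo share became 77.3% at 8 mismatches. The blastn measure and the motifs fitted by family were added after seeing the data. A motif fitted on multi-copy windows was not run, since 1 window is multi-copy.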
